A study of Mus musculus with 3 samples.

Results

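The genes described here are 6 serpins linked to the response of astrocytes to injury, namely Serpina3n, Serping1, Serpinh1, Serpinf1, Serpini1 and Serpinb6a. They were chosen by symbol from the 16610 genes of the table, and are set beside 20 other serpins of that table. Their values were read in 3 libraries of ribosome-bound RNA from mouse brain, each from the middle section of a hemisphere taken after 3 days. The control group was the right hemisphere of animals without occlusion. The contralateral group was the right hemisphere of animals that had middle cerebral artery occlusion (MCAO, a stroke model in which a brain artery is blocked) for 1 h. The MCAO group was the left, occluded hemisphere of animals with the same treatment. In all groups the RNA was isolated with RiboTag, a method that pulls down ribosomes by a tag on a ribosomal protein and keeps the transcripts bound to them. The labels name no driver line for the tag, no strain and no age, and the series title speaks of astrocytes. Each group was 1 library made from a pool of 3 animals, so differences between libraries have no replicate check, and the left side cannot be told apart from the occlusion.

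Serpins are a family of proteins most of which inhibit serine proteases. The protease cuts an exposed loop of the serpin, the serpin changes shape, and the protease stays trapped on it by a covalent bond. Some serpins have lost this activity and act as chaperones or signalling proteins. In the injured brain, serpins meet proteases of complement, of plasminogen activation and of invading leukocytes. Serpina3n is widely used as a marker of reactive astrocytes, and Serping1 is often listed among the genes of the A1 reactive state.

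Of the 6 genes, Serpina3n alone exceeded 2-fold in the occluded hemisphere, at 4.11 times the control and 3.0 times the contralateral value. Serping1, which encodes C1 inhibitor, was higher than the control in both hemispheres of the occluded animals, by 1.77 times in the MCAO hemisphere and 1.66 times in the contralateral one. Serpinh1 and Serpinb6a were 1.35 and 1.22 times the control in the MCAO hemisphere. Serpinf1 and Serpini1 were at 0.991 and 0.972 times the control there. The 5 other Serpina3 genes with a mean of at least 20 normalised counts were also at least 2-fold above the control in the MCAO hemisphere.

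The upstream sequences of 4 Serpina3 genes are shown because these genes were higher together in the MCAO hemisphere. That of Serpinb6a, whose transcript was within 1.5-fold of the control, is shown for its STAT-type and interferon-type motifs. The sequences are from RefSeq on GRCm38.p6 and are written 5′ to 3′ on the strand of the gene. They end just before the outermost annotated start of the gene. In the first pair, capitals mark the bases in which Serpina3n (chr12:104406458-104406645, plus strand) and Serpina3c (chr12:104153930-104154122, minus strand) differ in their alignment. In the other sequences, Serpina3f (chr12:104214294-104214543, plus strand), Serpina3g (chr12:104235897-104236146, plus strand) and Serpinb6a (chr13:34002795-34003044, minus strand), capitals mark matches to the motifs named after them.
Serpina3n: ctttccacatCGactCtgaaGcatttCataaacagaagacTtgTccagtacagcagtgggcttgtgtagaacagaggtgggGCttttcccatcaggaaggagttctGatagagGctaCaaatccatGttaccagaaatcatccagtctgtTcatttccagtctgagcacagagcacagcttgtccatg
Serpina3c: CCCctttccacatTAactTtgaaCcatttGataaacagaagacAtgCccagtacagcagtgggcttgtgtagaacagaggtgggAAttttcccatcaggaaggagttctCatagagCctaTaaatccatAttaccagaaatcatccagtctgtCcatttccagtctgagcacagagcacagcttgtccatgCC
Serpina3f: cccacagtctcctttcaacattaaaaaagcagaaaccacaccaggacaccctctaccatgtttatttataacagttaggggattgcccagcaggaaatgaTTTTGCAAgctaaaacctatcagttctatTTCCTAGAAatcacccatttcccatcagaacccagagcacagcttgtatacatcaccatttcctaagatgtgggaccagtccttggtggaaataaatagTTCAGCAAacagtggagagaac
Serpina3g: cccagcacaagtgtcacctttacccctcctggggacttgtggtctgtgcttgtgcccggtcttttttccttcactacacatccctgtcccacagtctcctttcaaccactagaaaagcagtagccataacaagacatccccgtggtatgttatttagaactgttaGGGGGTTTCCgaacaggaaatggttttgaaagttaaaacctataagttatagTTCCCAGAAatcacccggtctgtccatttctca
Serpinb6a: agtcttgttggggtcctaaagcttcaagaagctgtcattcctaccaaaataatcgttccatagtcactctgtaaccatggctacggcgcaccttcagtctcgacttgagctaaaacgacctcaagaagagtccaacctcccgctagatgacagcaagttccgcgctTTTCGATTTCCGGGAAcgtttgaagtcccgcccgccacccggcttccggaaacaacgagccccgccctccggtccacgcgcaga

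The stretches of Serpina3n and Serpina3c had 174 identical bases, 14 mismatches and 5 gap positions, an identity of 90.2%. Of the serpins whose upstream sequences were aligned with that of Serpina3n, Serpina3c was the most alike, and other pairs were not aligned. Aligned over the 250 bases before the listed start, Serpina3n was 90.5% identical to Serpina3c, 63.0% to Serpina3f and 47.0% to Serpina3g. Its identity to 14 serpins outside the Serpina3 family ran from 42.9% to 53.4%, a range that holds the value of Serpina3g. The alignment with Serpina3g had 126 gap bases. Each window was cut at the gene's own listed start, so related stretches can lie at unlike distances from it. The value of Serpina3g thus does not show that its upstream region is unrelated. The 250 bases before the listed start were searched on both strands for 5 motifs in 20 serpins with an entry, 5 of the 6 genes among them. Serping1, Serpina3h, Serpina3k, Serpina3m, Serpina9 and Serpinb1a had no entry and were not searched. The STAT-type motif TTCNNNGAA was found in 4 of these serpins, namely Serpina3f, Serpina3g, Serpina3i and Serpinb6a, and in 8.13% of 27025 genes with an entry. The interferon-type motif (GAAA, any 2 bases, GAAA) was found in Serpinb6a and Serpinb9, and in 3.46% of all genes. In Serpinb6a it overlaps the STAT-type match. Serpinb6a has 2 listed start sites, and both matches lie before the one whose sequence is shown. The window before the other had no match to any of the 5 motifs. The C/EBP-type motif TTGCNNAA was found in Serpina1b, Serpina3f and Serpina5 (10.8% of all genes), and the NF-kB consensus in Serpina3g, Serpina3i and Serpinh1 (8.23%). The heat shock motif (GAA, TTC and GAA with any 2 bases between them) was found in 0 of the 20 serpins and in 0.514% of all genes. Serpina3n and Serpina3c had no match to any of the 5 in this window. Lined up over 25 bases with the STAT-type site of Serpina3g and the bases after it, Serpina3n had 21 identical bases and Serpina3c 22. Both hold the stretch TTACCAGAA at the site. It differs from the site of Serpina3g by C3A, counted from 1 at the 5′ end of the site. Serpina3f, with 16 of the 25 bases identical, has C5T at a base the motif leaves free. Serpina3i, with 24 of the 25 identical, has the same site as Serpina3g. The sites of these 3 related genes line up and are not separate finds. A match describes letters in this window and was not tested as a binding site.

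Where 3 values follow a gene below, their order is control, contralateral, MCAO. Library totals, recovered from the normalised values, were 31833456 reads for the control, 33886604 for the contralateral and 25930258 for the MCAO library. The astrocyte marker list had 16 of 16 genes listed, with summed values of 553797, 583104 and 600272 normalised counts in the same order, and the neuron list had 14 of 14, with 432676, 385476 and 381286. Of the 16 astrocyte markers, Gfap exceeded 2-fold in the MCAO hemisphere. Myeloid markers were higher in that library: 10 of 14 microglia genes and 8 of 10 macrophage genes with a mean of at least 20 normalised counts exceeded both right hemispheres by 2-fold or more. Of all 14906 genes with such a mean, 2.58% did so. The summed microglia values were 10678, 10824 and 31831 normalised counts, and the summed macrophage values 776, 1224 and 13807. Of 10 neutrophil genes 2 were listed, with summed values of 87.2, 111 and 331. The 1 of them past the filter of 20 exceeded both right hemispheres by 2-fold or more. Of 11 lymphocyte genes 0 were listed. In the contralateral library 15 of 15 male germ cell genes were at least 2-fold above the control, as were 5.17% of all 14906 genes. The summed values of the germ cell genes were 369, 11063 and 325.

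Serpina3n, the mouse serpin related to human alpha-1-antichymotrypsin and an inhibitor of leukocyte proteases such as granzyme B (chromosome 12, 104406646 to 104414334), reached 25376 normalised counts in the MCAO hemisphere, against 6171 in the control and 8471 contralaterally. The MCAO hemisphere stood above both right hemispheres, and the contralateral value was the nearer to the control. The ratio of the MCAO hemisphere to the control was 4.11 (95% counting interval 4.0 to 4.23), that to the contralateral library 3.0 (2.92 to 3.07), and that of the contralateral library to the control 1.37 (1.33 to 1.42). Intervals were computed by the exact Clopper-Pearson method on the recovered reads, which for Serpina3n numbered 6372, 9547 and 21573. They cover counting error only, not the spread between animals. In ribosome-bound RNA pulled down from many cells together, more cells of a type, more RNA per cell and more of that RNA on ribosomes cannot be told apart. None of the 3 libraries was of RNA before the pull-down.

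On the log2(normalised count + 5) scale, on which at least 2-fold is counted below, Serpina3n differed by 2.04 between the MCAO hemisphere and the control. This lay above 98.7% of the 14906 genes with a mean of at least 20 normalised counts, and 191 genes had a larger difference. Against the contralateral library its difference was 1.58, above 98.5% of genes. In the contralateral library it was 0.46 above the control, higher than 88.4% of genes. Myeloid markers were higher in the same library, and their part in the value of Serpina3n was not tested. Serpina3n is itself on the list of pan-reactive astrocyte genes, of which 12 passed the filter on low values and 11, Serpina3n included, exceeded both right hemispheres 2-fold. It was below the median of these 12. The median was 3.02 against the control, and the median over all tested genes was 0.00. In the contralateral library 3 of the 12 were at least 2-fold above the control, as were 5.17% of all tested genes. The median of the 12 there was 0.46.

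**Figure D1:**
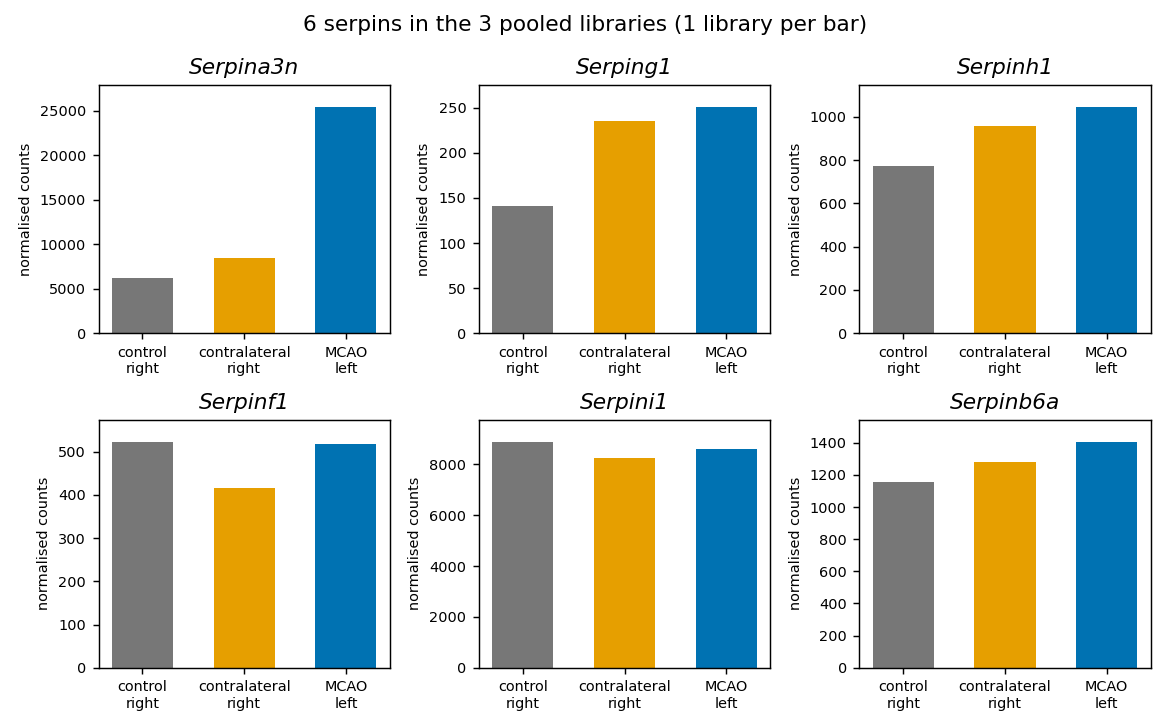
Normalised counts (vertical axes, each from 0) of the 6 serpins in the control right, contralateral right and MCAO left libraries, with 1 pooled library per bar and no error. Serpina3n stands at 25376 in the MCAO hemisphere against 6171 and 8471, Serping1 is low in the control alone, and Serpinf1 is lowest in the contralateral library.

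Serping1, which encodes C1 inhibitor, the serpin that blocks the complement proteases C1r and C1s as well as plasma kallikrein (chromosome 2, 84765360 to 84775444), had a control value of 141 normalised counts, a contralateral value of 235 and an MCAO value of 251. Both hemispheres of the occluded animals were above the control and close to each other. The ratios to the control were 1.77 (1.43 to 2.2) in the MCAO hemisphere and 1.66 (1.35 to 2.05) in the contralateral library. The ratio between those libraries was 1.07 (0.886 to 1.28). Serping1 rests on 146, 265 and 213 reads, the fewest of the 6, which gives it the widest intervals. Its log2 difference from the control lay above 94.3% of genes in the MCAO hemisphere and above 93.1% in the contralateral library. Male germ cell genes were higher in the contralateral library too, and their part in the value of Serping1 there was not tested.

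Serpinh1, also called HSP47, is a chaperone of collagen in the endoplasmic reticulum and does not inhibit proteases (chromosome 7, 99345375 to 99353239). Its values were 775 (control), 959 (contralateral) and 1043 (MCAO) normalised counts. The control was lowest, and the hemispheres of the occluded animals were close. The MCAO hemisphere was 1.35 times the control (1.22 to 1.48), the contralateral library 1.24 times (1.13 to 1.36), and the ratio of the MCAO hemisphere to the contralateral library was 1.09 with an interval that reaches 1 (0.994 to 1.19).

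Serpinb6a, an intracellular serpin that inhibits trypsin-like proteases and cathepsin G (chromosome 13, 33917918 to 34002794), had 1154, 1278 and 1403 normalised counts. The order was that of Serpinh1, with smaller steps. The MCAO hemisphere was 1.22 times the control (1.12 to 1.32) and 1.1 times the contralateral library (1.02 to 1.19), and the contralateral library was 1.11 times the control (1.02 to 1.2). Serpinb6a has close relatives, and reads of such relatives can be assigned to one another.

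Serpinf1, encoding the secreted pigment epithelium-derived factor, a protein without protease inhibition that protects neurons and restrains vessel growth (chromosome 11, 75410029 to 75422623), had 522, 415 and 518 normalised counts. The control and the MCAO hemisphere were alike in level and the contralateral library was lower. The MCAO hemisphere was at 0.991 times the control (0.872 to 1.13), a difference whose sign changed with the scaling. The contralateral library was at 0.795 times the control (0.701 to 0.902), and the MCAO hemisphere was 1.25 times the contralateral library (1.09 to 1.42).

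Serpini1, encoding neuroserpin, an inhibitor of tissue plasminogen activator known mainly from neurons (chromosome 3, 75557493 to 75642523), had 8869, 8242 and 8620 normalised counts. It varied least of the 6. The MCAO hemisphere was at 0.972 times the control (0.942 to 1.0), and the contralateral library at 0.929 times (0.903 to 0.957). The MCAO hemisphere was 1.05 times the contralateral library (1.01 to 1.08), and this sign changed when values were scaled to astrocyte markers.

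**Figure D2:**
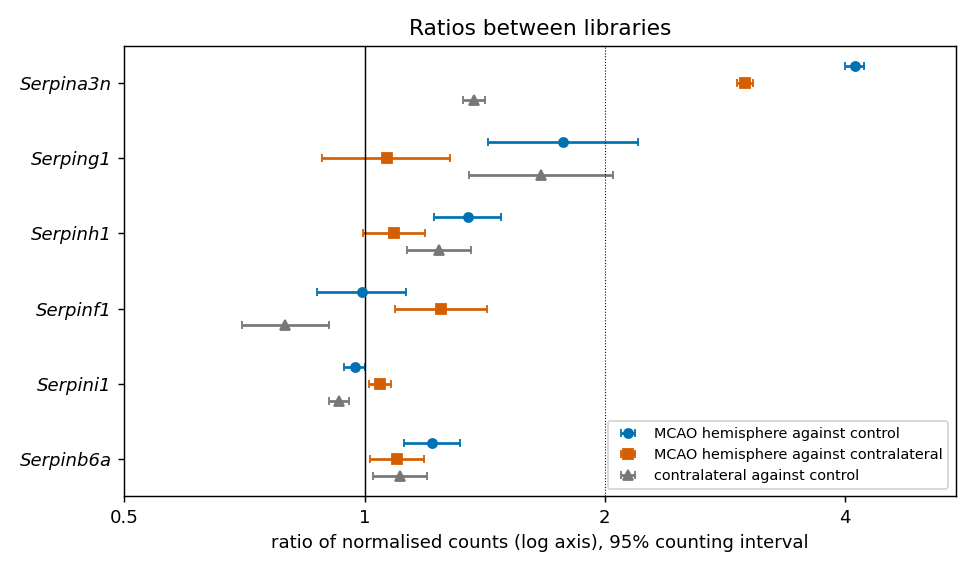
Ratios of normalised counts between libraries (horizontal log axis) for the 6 serpins, with 95% counting intervals as bars, a solid line at 1 and a dotted line at 2. Serpina3n lies beyond 2 in both comparisons of the MCAO hemisphere, and the other 5 serpins have all ratios between 0.795 and 1.77.

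All 6 serpins passed the filter. Against the control, 1 of the 6 was 2-fold or more higher in the MCAO hemisphere, where 4.12% of all tested genes were, and 0 were 2-fold lower, against 1.25% of all genes. Their median log2 difference was 0.35. Against the contralateral library 1 of 6 was 2-fold higher (3.18% of all genes) and 0 were lower (4.96%), with a median of 0.13. Between the contralateral library and the control 0 of 6 were 2-fold higher (5.17%) or lower (0.362%), with a median of 0.23. The median over all genes lay at 0.00 in each comparison. These comparisons share libraries in pairs and are not independent of each other. Within 1.5-fold of the control in the MCAO hemisphere were 4 of the 6 serpins, and 85.7% of all genes.

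**Figure D3:**
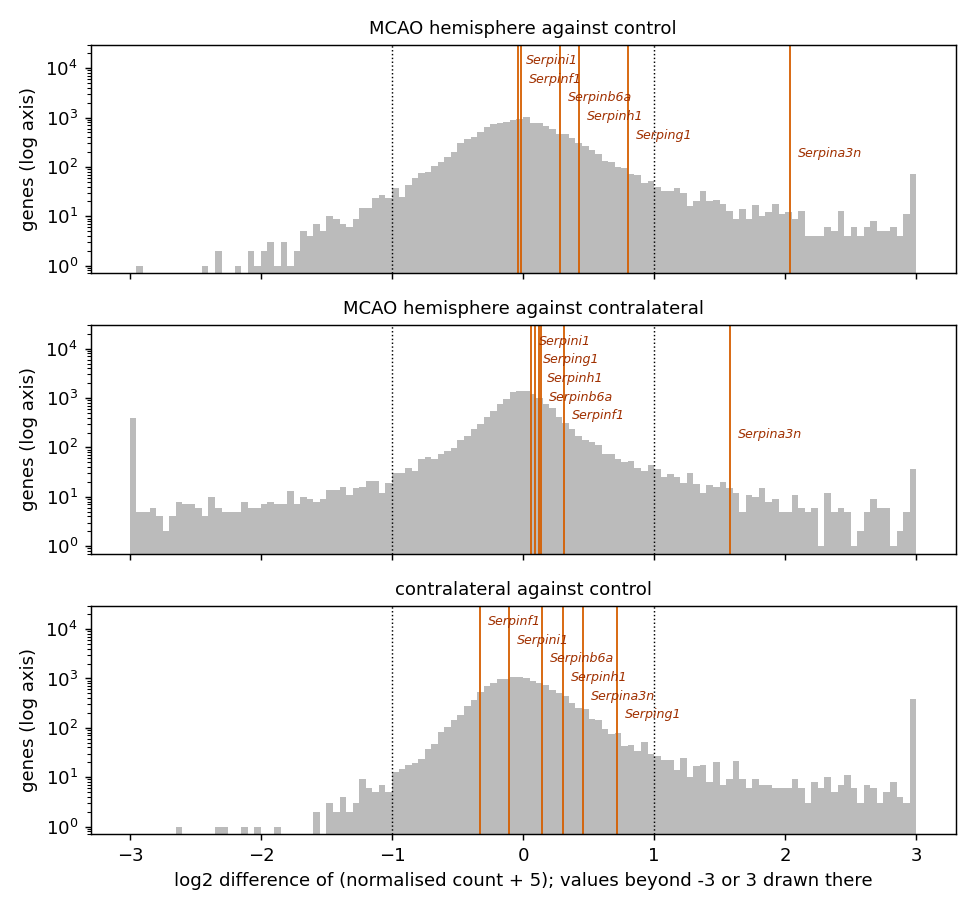
Distribution of the log2 difference of (normalised count + 5) over 14906 genes (bars, log axis of gene number) in 3 comparisons, with the 6 serpins as vertical lines and dotted lines at 2-fold. In both comparisons of the MCAO hemisphere Serpina3n lies beyond the 2-fold line, and the other 5 lie inside it in every panel.

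Of the 20 other serpins described, 15 passed the filter. In the MCAO hemisphere 6 of the 15 were at least 2-fold above the control and 5 of them were above both right hemispheres, where 2.58% of all genes were. Serpina9 was lower than both, as were 0.517% of all genes. Outside the Serpina3 family, 1 of 10 was higher than both and 1 was lower, and the median difference from the control was -0.17. The filter was passed by genes that were high in any library, so these counts describe the table and are not a test.

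Serpinf2, encoding alpha-2-antiplasmin (chromosome 11, 75431736 to 75439501), had 8.72, 7.99 and 52.9 normalised counts, a ratio to the control of 6.07 (2.93 to 14.1) that rests on 9 control reads. The gene lies next to Serpinf1 on chromosome 11, and Serpinf1 was at 0.991 times the control in the same library. The clade A serpin gene Serpina9 had 312, 247 and 70.6, which was 0.226 times the control (0.169 to 0.299).

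Among the serpins with the highest values, Serpine2, encoding protease nexin 1, an inhibitor of thrombin and plasminogen activators, had 26118, 24004 and 27826 normalised counts. The clade B gene Serpinb1a, an inhibitor of neutrophil proteases, had 742, 449 and 699, and its contralateral value was 0.605 times the control (0.54 to 0.678). Thus Serpine2 varied little between libraries. Both Serpine2 and Serpinb1a, like Serpinf1 and Serpini1, were lowest in the contralateral library.

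**Figure D4:**
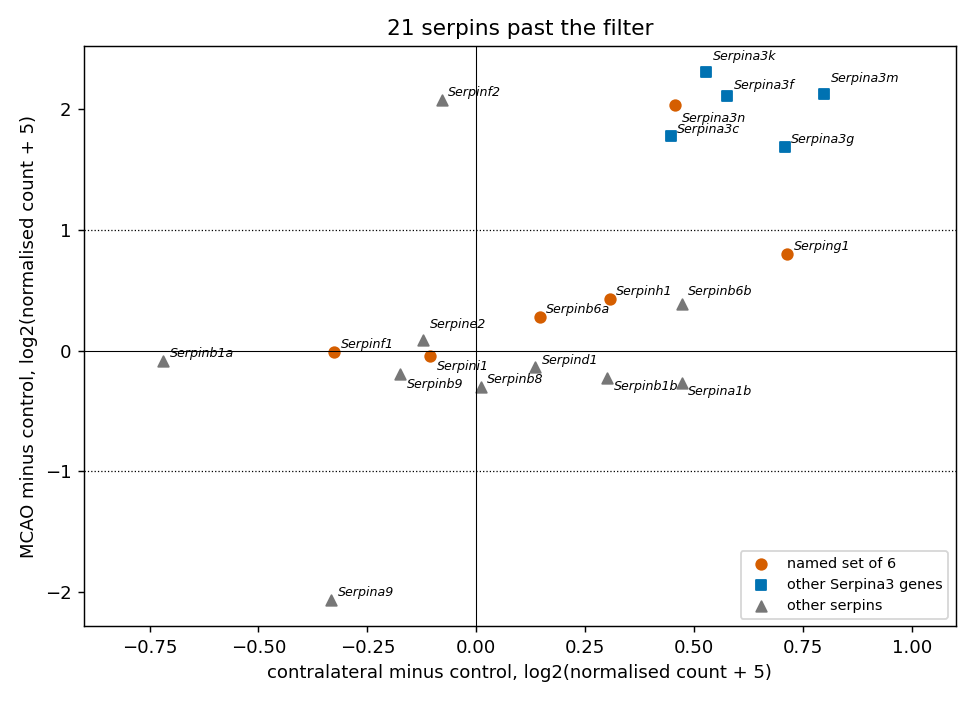
The 21 serpins described that passed the filter, by their contralateral difference from the control (horizontal axis) and that of the MCAO hemisphere (vertical axis), both as log2 of (normalised count + 5), with dotted lines at 2-fold. The 6 Serpina3 genes lie together at the upper right, Serpinf2 lies high without a positive contralateral difference, and Serpina9 lies alone at the bottom.

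By coordinate, Serpina3n is the last of 13 Serpina genes of the table on chromosome 12. The mouse carries many copies of the Serpina3 gene where the human genome has a single SERPINA3, and reads of near-identical copies can be split between them, so single values of these genes are uncertain. Of 9 Serpina3 genes listed, 6 passed the filter, and all 6 were at least 2-fold above the control in the MCAO hemisphere. Serpina3m had 232, 408 and 1035 normalised counts, a ratio to the control of 4.45 (3.86 to 5.16), and Serpina3f had 119, 180 and 530, a ratio of 4.45 (3.64 to 5.48). Serpina3k had 39.7, 59.4 and 216, a ratio of 5.45 (3.87 to 7.85). The intervals of these 3 and of Serpina3n all began at 3.64 or higher.

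Serpina3c, whose upstream stretch above was 90.2% identical to that of Serpina3n, had 39.7, 55.9 and 148 normalised counts, a ratio of 3.73 (2.6 to 5.45). Serpina3g had 123, 204 and 408, a ratio to the control of 3.32 (2.7 to 4.1), and at 2.0 times the contralateral value it was just short of 2-fold on the log2(normalised count + 5) scale. In the contralateral library the 6 genes were 1.37 to 1.76 times the control, Serpina3n being the least and Serpina3m the most. The 8 Serpina3 genes other than Serpina3n, summed, were 4.24 times the control in the MCAO hemisphere (3.86 to 4.66), close to the 4.11 of Serpina3n.

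Serpina3n held 91.6% of the reads of the 9 genes in the control (91.0% to 92.3%, exact binomial), 90.0% contralaterally (89.5% to 90.6%) and 91.4% in the MCAO hemisphere (91.0% to 91.8%). The share was thus about the same in the 3 libraries. Whether the other genes hold reads of Serpina3n was not tested.

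The 5 Serpina genes below the filter rest on few reads. Serpina1c had 9.69 and 15.1 normalised counts in the right hemispheres and was listed at 1, the minimum of the table, in the MCAO hemisphere. Serpina3h had 9.69, 7.99 and 32.9 normalised counts. Serpina3i, at 17.6 in the MCAO hemisphere, stood at the minimum of 1 in the right hemispheres. It was at least 6.07-fold higher than a control floor of 3 reads, a bound that takes its 15 reads as exact. Serpina3a and Serpina5, the latter known from the male reproductive tract, were listed at 1 in the control and the MCAO hemisphere and had 21.3 and 24.0 in the contralateral library. Taking their 24 and 27 reads as exact, they were at least 7.33-fold and 8.24-fold higher there than the control floor, in the library in which the male germ cell genes were higher, and the part of germ cell transcripts in these values was not tested.

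**Figure D5:**
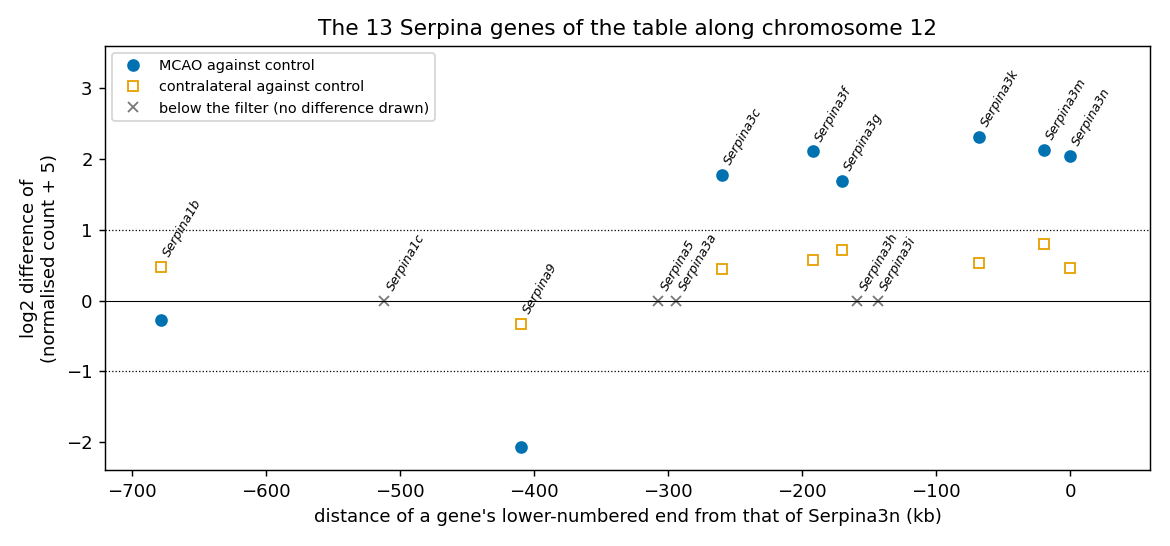
Log2 difference of (normalised count + 5) from the control (vertical axis) of the 13 Serpina genes, placed by their distance in kb from Serpina3n (horizontal axis), in the MCAO hemisphere (filled circles) and the contralateral library (open squares). Crosses mark genes below the filter. The 6 Serpina3 genes past the filter lie above the upper dotted 2-fold line in the MCAO hemisphere, and Serpina9 lies below the lower one.

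The proteases and partners of the 6 serpins were described from lists chosen for their roles. The counts of these lists stand against 4.12% of all tested genes at least 2-fold above the control and 2.58% above both right hemispheres. Of 8 complement genes that passed the filter, 4 exceeded both right hemispheres 2-fold, with a median log2 difference of 1.42 from the control. These were the C1q chain genes C1qa, with 664, 667 and 3169 normalised counts, C1qb and C1qc, and C4b, with 1525, 2254 and 6686. The C1q genes are also microglia markers. Among the complement proteases of the list, and chosen after their values were seen, C1ra had 104, 91.4 and 147 and Masp1 had 255, 210 and 219. C1ra and Masp1 were thus within 2-fold of the control, as was Serping1.

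Of 6 genes of plasminogen activation and clotting past the filter, 4 were higher than both right hemispheres. The urokinase gene Plau had 90.1, 102 and 566 normalised counts and its receptor gene Plaur 6.78, 10.7 and 113. Plat, the target of neuroserpin and chosen after its values were seen, had 1340, 1278 and 1777, and so was highest in the MCAO hemisphere while Serpini1 was not. Of 8 genes past the filter on the list of leukocyte and trypsin-like proteases, 3 were higher than both. They were Klk6, with 90.1, 94.1 and 825, Klk8, with 43.6, 65.7 and 167, and St14, with 274, 270 and 3445. The leukocyte protease genes of the list, such as those of granzyme B and cathepsin G, were not among the 8. Prss56, a trypsin-like protease gene of the same list, went the other way, with 125, 38.2 and 42.3, and was 2-fold lower than the control in both other libraries. None of the 8 genes on the list of clearance receptors and their partner Lrpap1 differed 2-fold in any comparison. Their median was -0.24 against the control. Lrp1, which takes up serpin and protease complexes, had 168402, 90969 and 136623. The 6 genes given as receptors or binding partners of the Serpinf1 protein likewise had 0 members 2-fold apart in these comparisons.

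The collagens, which Serpinh1 helps to fold, had 3 of 16 genes at least 2-fold above the control in the MCAO hemisphere and 2 above both right hemispheres. Col5a3 had 6.78, 6.21 and 128 normalised counts and Col16a1 had 201, 266 and 746. The list's median was 0.31 against the control, and the difference of Serpinh1 was 0.43. Of 20 collagen processing genes 1 was higher than both, beside 2.58% of all genes, namely P3h2 with 51.3, 39.0 and 111, and the median was 0.35. Of 21 chaperones 2 were above the control, Hspb1 with 41.6, 59.4 and 400 and Cryab with 1056, 1292 and 2408, and the median was 0.39. Serpinh1 thus lay near the medians of the lists of its function. In all 3 lists most genes were within 2-fold of the control.

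Of 24 genes of other protease inhibitor families past the filter, 3 were at least 2-fold above the control and 2 above both right hemispheres, and the median was -0.14. Timp1, an inhibitor of metalloproteases, had 2.91, 19.5 and 428 normalised counts, and A2m, the broad inhibitor alpha-2-macroglobulin, had 346, 551 and 1329.

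Signalling genes that act upstream of acute-phase serpins in other tissues were also read. In the STAT3 and C/EBP list 7 of 18 genes were 2-fold above the control in the MCAO hemisphere and 4 above both right hemispheres, with a median of 0.53. Cebpd, a transcription factor of the acute phase, had 111, 73.6 and 441 normalised counts, and Osmr, the oncostatin M receptor gene, had 34.9, 48.8 and 272. In the interferon list 9 of 21 were above the control and 8 above both, with a median of 0.90. The transcription factor gene Irf7 had 13.6, 35.5 and 84.7 and Isg15 had 9.69, 42.6 and 107. Irf7 and Isg15 were the 2 of 21 genes of that list that were 2-fold above the control contralaterally, and the list's median there was 0.16. Of 11 A1-associated genes past the filter, 4 were above both right hemispheres, and Serping1 was the median of that list, at 0.80.

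Genes with the pattern most like each serpin were found by the distance between their pairs of log2 differences from the control, over 3 libraries and 14015 genes. Nearest to Serpina3n were Il21r, with 32.9, 45.3 and 152 normalised counts, Cd53, with 68.8, 97.6 and 312, and Ifi30, with 101, 135 and 412. Only 5 genes lay within 0.1 log2 units of Serpina3n. Nearest to Serping1 were Ifitm2, with 136, 230 and 241, Ube2t and the astrocyte transcription factor gene Sox9, with 1522, 2446 and 2623, and 22 genes lay within 0.1. The patterns of the other 4 were common, with 323 genes within 0.1 of Serpinh1, 207 of Serpinf1, 626 of Serpinb6a and 1237 of Serpini1. Nearest to these were Suv420h2, Mrpl36 and Tceal8 for Serpinh1, Lman1, Cyp27a1 and Rnf180 for Serpinf1, Map2k3, P2ry14 and Rnf215 for Serpinb6a, and Soga1, Bdp1 and Brox for Serpini1.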

How the data were processed

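The deposited table holds a signal value for each gene in each library. These are read counts that the authors divided by a library size factor. Per the submitters' processing notes, the build was mm10 and the tools included HISAT2 2.0.11, CASAVA 1.8, R 3.3.1, Partek 6.6 and DESeq2, with no roles given. Values below 1 are listed as 1, which stands for 0 reads in the MCAO library and for 0 or 1 read in the others. Whole reads were recovered from the worth of 1 read, which was 0.969 normalised counts for the control, 0.887 for the contralateral and 1.18 for the MCAO library. In each column 99.9% of values above 1 were whole within 0.1 read. The strand setting of the counting is not given in the sources used here, so overlapping genes may share reads. Columns were matched by the sample descriptions.

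With 1 library per group no test was made and no p-value is given. The design text also mentions 2 technical replicates, which the table does not separate. Differences are of log2(value + 5), which understates those of low genes. They were taken where the mean over the libraries was 20 or more, which 14906 genes met. A gene was called where it differed at least 2-fold on that scale. Ratios are of the normalised counts. Levels were not compared between genes, since no transcript lengths were used here. The 6 genes and all lists were chosen with earlier results of these data known. Genes were mostly named by a rule: the 6 serpins, serpins called in any comparison, the 3 other serpins with the highest mean, up to 4 genes per list with the largest difference between MCAO and control, and the 3 nearest patterns, without predicted genes. Outside it, and chosen after their values were seen, are C1ra, Masp1, Plat, the serpins below the filter and those named for a motif alone. Coordinates and sequences are from RefSeq on GRCm38.p6, in which all 26 serpins described were found. Some genes are not reported here and were left out of the serpin and list counts, though not of the counts over all genes. Python 3.11.15 with numpy 2.4.6, pandas 2.3.3, scipy 1.17.1 and Biopython 1.88 was used, and the procedure was tested on simulated reads. Alternatives were 3 other scalings, 2 other pseudocounts and no filter.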

Additional observations from a re-analysis of the deposited data

How the results depend on the processing

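Serpina3n was at least 2-fold higher than both right hemispheres under all 6 alternatives, with log2 differences of 1.86 to 2.07 from the control and 1.5 to 1.58 from the contralateral library. None of the other 5 serpins reached 2-fold under any of them. Scaling to the astrocyte markers other than Gfap moved the median of all genes by -0.18 in the MCAO hemisphere and -0.11 in the contralateral library against the control. Under it 464 genes were higher and 303 lower in the MCAO hemisphere than in the control, so that 60.5% of calls were higher, against 614, 187 and 76.7% in the deposited scaling. The sign changed for Serpinf1 in the MCAO hemisphere against the control under 2 alternatives, with values from -0.19 to 0.02, and for Serpini1 against the contralateral library under 1, with values from -0.01 to 0.06. The counts of serpins 2-fold higher in the MCAO hemisphere stayed within 1.5 times of 7 against the control and 6 against both right hemispheres under every alternative.

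Counts that moved by over 1.5 times were mostly of lower genes. With a pseudocount of 1, 132 genes were lower than both right hemispheres in place of 77. With a pseudocount of 20 that count was 28, the count lower than the control 105 in place of 187, and the count of contralateral values lower than the control 27 in place of 54. Without the filter 295 genes of the MCAO hemisphere were lower than the control and 1391 lower than the contralateral library, in place of 740. In the contralateral library against the control 1415 were then higher, in place of 771, and 112 lower. Serpins lower in the MCAO hemisphere were then 2 against the control, 4 against the contralateral library and 2 against both, in place of 1 each, and 2 serpins in place of 0 were higher contralaterally than in the control. These counts include genes with few reads. No paired analysis was possible because each group had 1 library and no test was made. Among the 6 serpins Serping1 has the fewest reads, 146 in the control. Serpinf2 rests on 9 control reads, Serpina3c and Serpina3k on 41 each, and the Serpina genes below the filter on 27 or fewer in the right hemispheres.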
